A study of Bos taurus with 24 samples.

Results

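The 100 genes described here are the most abundant multi-exon genes in the testes of post-pubertal Holstein bulls, among 18261 genes that qualified and 24525 gene features in all. They were selected on measured values: the counts of each gene were summed over its exon bins and divided by all counts of the library, and the 100 genes with the highest mean of this share over 24 bulls were taken. A gene qualified with 2 to 49 exon bins and an identifier of its own, that is, not joined to an overlapping gene. Beforehand, 8 features named in the rule were left out, of which 4 had a mean share at or above that of member 100. An exon bin is a stretch of exon that the same set of transcripts shares. The members are numbered here from 1, the highest mean share, to 100, because the count tables carry Ensembl identifiers without symbols and no identifier could be paired with a gene name. For the same reason the role of each gene, its position and its sequence are not given, and the testis label was not checked against marker genes.

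Testicular parenchyma was collected at castration at 72 wk of age, and RNA of each bull gave 1 library. Bulls were fed from 2 to 32 wk of age on a high diet (HD; 20% crude protein and 67.9% total digestible nutrients, 8 bulls), a medium diet (MD; 17% and 66%, 8 bulls) or a low diet (LD; 12.2% and 62.9%, 8 bulls). All 24 bulls were then kept on the medium diet, so the comparisons concern an earlier difference in feeding. Libraries held 9163675 to 21902110 counts on genes, and reads outside annotated exons made up 9.54% to 21.4% of counts plus unassigned reads. HD bull 14, which had the shallowest library, MD bull 6, which had the most reads outside exons, and HD bull 8, which had the fewest, stood apart from the others for many members, as detailed below.

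The seminiferous tubules of a mature testis hold germ cells at every stage from spermatogonia to elongated spermatids, together with Sertoli cells, while Leydig cells and vessels lie between the tubules. Germ cells make up most of the tissue, and late germ cells store large amounts of messenger RNA for proteins made after transcription has stopped, so a few transcripts can take up a large part of a testis library. In bulk tissue, fewer cells of a type and less RNA per cell cannot be told apart.

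The 100 members together held 12.4% ± 0.651 (SD, n = 24 bulls) of the counts on genes, from 10.9% in the lowest bull to 13.5% in the highest. The 33 most abundant members held more than 50% of that sum, and members 1 to 10 held 2.74% of all counts. Mean shares ran from 0.405% for member 1 to 0.0757% for member 100, a 5.35-fold range. These are shares of counts and not levels per length: a gene with more or longer exons collects more reads, and reads spanning a pair of bins enter both counts. The smallest count of a member in a library was 1509, which corresponds to a counting error of 2.57% if each count is a separate read. As some reads are counted in more than 1 bin, the true counting error is larger. This covers counting error only, and as each bull gave 1 library, differences between bulls and between library preparations cannot be told apart.

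Member 1 (ENSBTAG00000018771, 12 exon bins) took from 0.316% to 0.523% of the counts of a bull, with a median of 0.407%. Member 2, with 22 bins, took from 0.167% to 0.507%. Member 3, with 2 bins, ranged most widely among the first 12, from 0.160% to 1.13%. Its highest value came from HD bull 14 and no other gene of the 100 reached 1% in any bull. The other 9 of the first 12 had mean shares between 0.194% and 0.268%. All of the first 12 except members 8 and 11 were among the 100 highest qualifying genes in each of the 24 libraries, and members 8 and 11 were so in 23.

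**Figure D1:**
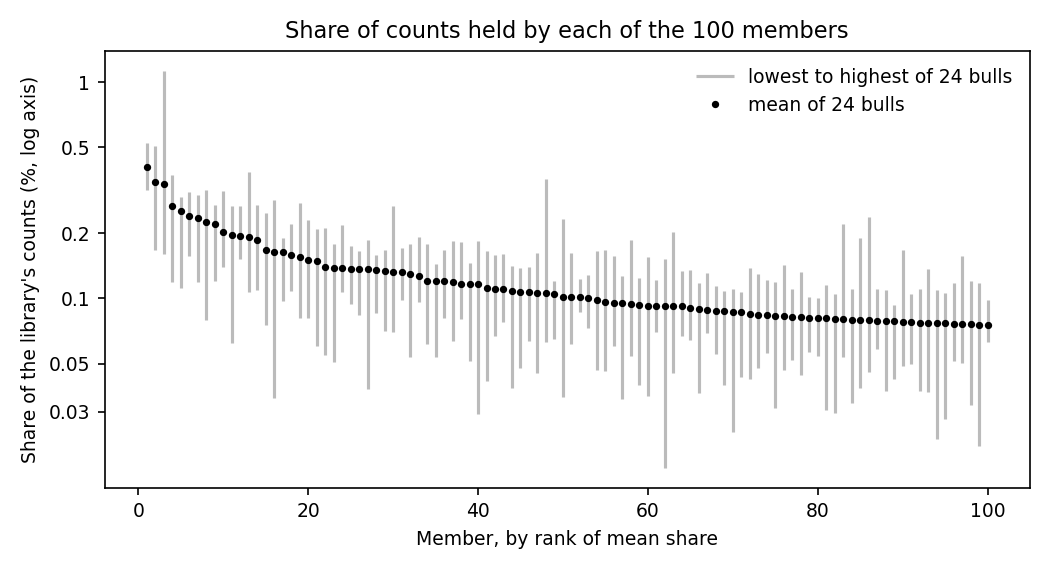
Share of the counts of a library held by each member (y axis, percent, log scale) against its rank (x axis); points are means over 24 bulls and lines run from the lowest to the highest bull. Shares fell from 0.405% to 0.0757%, and the line of member 3 reaches 1.13%, its value in HD bull 14.

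Toward the end of the list the order was set by small differences. Member 98 had a mean share of 0.0761%, member 99 of 0.0758% and member 100 of 0.0757%. The 3 genes just outside had 0.0757%, 0.0752% and 0.0752%, and the range over bulls of each of these 6 genes was wider than the differences between them. In single libraries the composition of the list moved: 23 members were among the 100 highest in all 24 libraries, 58 in at least 20, and the least regular one in 8, while 131 other genes were among the 100 highest in at least 1 library. Had genes been ranked on their most covered bin alone, 46 of the members would have been kept.

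Counts were spread unevenly over the exons of a gene. The members had 2 to 48 bins with a median of 11.5, and 10 members had at most 5 bins. The most covered bin of a member held 17% of its counts in the median. It held 84.7% in member 12, which has 2 bins, and 4.32% in member 29, and in 8 members a single bin held more than 50%. At the other end, 44 of the 1461 bins of the members each held under 0.1% of the counts of their gene, and these bins belonged to 17 members.

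As a share of all counts on genes, the summed members differed between diets by less than the spread between bulls. The HD bulls had 12.6% ± 0.684 (SD, n = 8), ranging from 11.3% to 13.5% with a median of 12.7%. The MD bulls had 12.3% ± 0.641 (SD, n = 8), ranging from 11.1% to 13% with a median of 12.4%. The LD bulls had 12.3% ± 0.675 (SD, n = 8), ranging from 10.9% to 13% with a median of 12.5%. The 3 groups overlapped along most of their range. The lowest HD value was that of HD bull 14, and without it the HD mean was 12.8% ± 0.497 (SD, n = 7). As a share of the counts that remain without the 8 features named in the rule, which held 4.5% of counts in HD and 2.65% in MD bulls, the members made up 13.2% ± 0.685, 12.6% ± 0.678 and 12.8% ± 0.535 for the HD, MD and LD diets (SD, n = 8 each). Without HD bull 14 the HD value on this scale was 13.4% ± 0.358 (SD, n = 7), and without MD bull 6 the MD value was 12.8% ± 0.384 (SD, n = 7). The HD and MD ranges overlapped with and without these bulls. The HD, MD and LD means for members 1 to 10 were 2.76% ± 0.312, 2.74% ± 0.184 and 2.72% ± 0.316 (SD, n = 8 each).

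**Figure D2:**
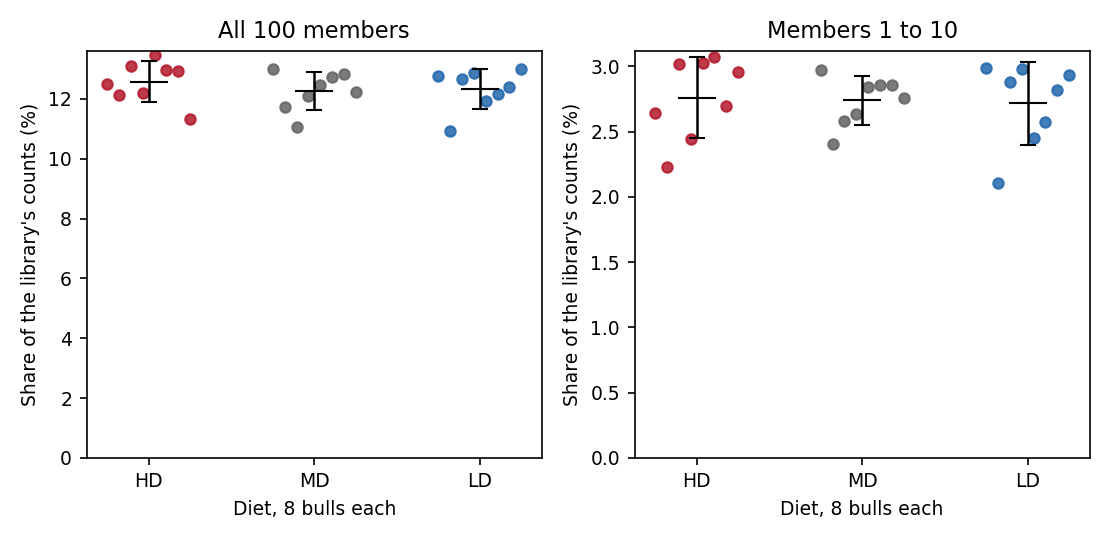
Share of the counts of a library (y axis, percent) held by all 100 members and by members 1 to 10, for the 8 bulls of each diet; points are bulls, and bars give the mean ± SD. Means were 12.6%, 12.3% and 12.3% for HD, MD and LD, and the groups overlap.

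Single members varied between bulls to very different degrees. The SD of the log2 CPM (counts scaled by library size and TMM factors) over the 24 bulls had a median of 0.36 and ran from 0.17 to 0.70. The steadiest were members 80, 49 and 26, with SDs of 0.17, 0.17 and 0.18. Member 49 lay between 744 and 1308 CPM in HD, 791 and 1161 CPM in MD, and 1001 and 1124 CPM in LD bulls, with medians of 1060, 1025 and 1064 CPM. The groups overlapped, and its lowest value was that of HD bull 14. The most variable were members 85, 63 and 48, with SDs of 0.70, 0.68 and 0.65. Member 85 ran from 314 CPM in an MD bull to 2160 CPM in HD bull 14. Without HD bull 14 the SDs of members 85, 63 and 48 were 0.63, 0.67 and 0.49.

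A few bulls supplied most of the extreme values. For 82 of the 100 members the lowest CPM of the 24 bulls was in MD bull 6 (36 members), HD bull 14 (33) or HD bull 8 (13). The highest was in an HD bull for 84 members, in an LD bull for 11 and in an MD bull for 5, and HD bulls 8, 13 and 14 gave the highest value for 26, 22 and 14 members. HD bull 14 differed from the mean of the other 7 HD bulls by more than 1 on the log2 scale for 35 members, above it for 9 and below it for 26.
The largest such differences were 2.05 for member 3 and -2.53 for member 62, on the log2 scale and relative to the other HD bulls. For member 3, HD bull 14 had 12870 CPM, and the other HD bulls had between 1670 and 3725 CPM. For member 62, HD bull 14 had 188 CPM, and the other HD bulls had between 600.4 and 1736 CPM. For member 48, HD bull 14 had 4078 CPM, against 782 to 1788 CPM in the other HD bulls.

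Members rose and fell together to a varied extent. Over all 4950 pairs of members, with each diet centred on its own mean, the correlation of log2 CPM over the 24 bulls had a median of 0.22 and quartiles of -0.16 and 0.57. Because all members of a library share its depth and scaling, these correlations are descriptions only. The closest pair was members 30 and 58 (Pearson r = 0.99, Spearman rho = 0.99 over 24 bulls), and 77 pairs were above 0.9. The most opposed pair was members 50 and 63 (r = -0.94, rho = -0.93), and 441 pairs were below -0.5. Members 61 and 79 had the patterns most like that of member 1, with r = 0.91 and 0.88. Without HD bull 14 the number of pairs above 0.9 was 127, and r of members 50 and 63 was -0.94.

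The first comparison between diets asked which members differed between bulls fed the high diet and controls on the medium diet. All 100 members passed the filter on low counts. At an adjusted p under 0.1 in edgeR's quasi-likelihood test, 28 members were higher in HD than in MD bulls and 0 were lower. Over all 15005 features tested, 14.1% were called, 8.68% higher and 5.42% lower in HD bulls. The share of members called higher was therefore above that of all features, but close to that of the next most abundant qualifying genes: 23.8% of the next 400 genes by rank and 21.4% of the 500 after them were higher in HD bulls, and 0.5% and 1% were lower. At an unadjusted p under 0.05, 38 members were higher and 2 lower, while 15.9% of all features were higher and 13% lower. DESeq2's Wald test with a beta prior called 34 members, all higher, among them the 28, and 2927 of 21333 features (13.7%).

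The median log2 fold change of the members was 0.24, with quartiles of 0.00 and 0.47, against 0.00 over all features. It was positive for 75 members and ran from -0.39 to 0.99. Among the 28 called members it lay between 0.36 and 0.99 with a median of 0.56, and their adjusted p lay between 0.0702 and 0.0951, close to the threshold. No member separated the diets completely: the HD and MD bulls overlapped for each of the 100, as they did for nearly all features, since 0.00666% of those tested had every HD bull above every MD bull. In 36 of the 100 members, 19 of them called, at least 4 of the 8 HD bulls were above the highest MD bull. The matching share over all features was not computed, so these counts are descriptions only and not a trait of the members.

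The calls were fragile, for the members as for all features. Leaving out any 1 of HD bulls 7, 8 and 13 or of MD bulls 4, 6, 16, 17 and 19 left 0 members called by edgeR, with 31 to 38 at an unadjusted p under 0.05, and in each of these 8 fits 1 of all features was called. Leaving out HD bull 14 gave 42 members and 23.9% of all features. When libraries were scaled by their totals instead of TMM, the median of all features moved to -0.21 and that of the members to 0.03, and 13 members were called higher and 3 lower, where 23.6% of all features were called.

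Member 67 (ENSBTAG00000014872, 11 bins) had the smallest p of the members. It lay between 802 and 1641 CPM in HD bulls (median 1027), between 566 and 1057 CPM in MD bulls (median 747) and between 682 and 917 CPM in LD bulls (median 792). All 8 HD bulls were above the MD median and 4 were above the highest MD bull, so the groups overlapped in part. Its log2 fold change HD/MD was 0.58 ± 0.15 (SE; adjusted p = 0.0702, edgeR). Without HD bull 14 it was 0.52 (adjusted p = 0.0582, edgeR).

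Member 61 (ENSBTAG00000020998, 11 bins) came nearest to separating the diets. It lay between 945 and 1475 CPM in HD bulls (median 1059), 575 and 958 CPM in MD bulls (median 847) and 761 and 1132 CPM in LD bulls (median 813). In 7 of the 8 HD bulls it was above the highest MD bull. The log2 fold change HD/MD was 0.46 ± 0.12 (SE; adjusted p = 0.0702, edgeR).

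Member 48, with 4 bins, had the largest fold change of the 100. It lay between 782 and 4078 CPM in HD bulls (median 1354), 528 and 1160 CPM in MD bulls (median 689) and 580 and 1201 CPM in LD bulls (median 904). Its highest value, from HD bull 14, was far above the other HD bulls. The log2 fold change HD/MD was 0.99 ± 0.28 (SE) with this bull and 0.62 without it, and it passed the threshold in both fits (adjusted p = 0.0702 and 0.0633, edgeR).

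Member 73, with 9 bins, lay between 839 and 1431 CPM in HD, 478 and 1115 CPM in MD and 437 and 1065 CPM in LD bulls, with medians of 1148, 668 and 672 CPM. The HD bulls were all above both medians, and 5 of them were above the highest MD bull. The log2 fold change HD/MD was 0.66 ± 0.18 (SE; adjusted p = 0.0702, edgeR). Member 24, with 6 bins, had medians of 1636 CPM in HD, 1225 CPM in MD and 1188 CPM in LD bulls, and a log2 fold change HD/MD of 0.52 ± 0.15 (SE; adjusted p = 0.0702, edgeR). Member 12, which has 2 bins, had medians of 2307, 1692 and 1726 CPM in HD, MD and LD bulls. Its log2 fold change HD/MD was 0.51 ± 0.15 (SE; adjusted p = 0.0702, edgeR).

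**Figure D3:**
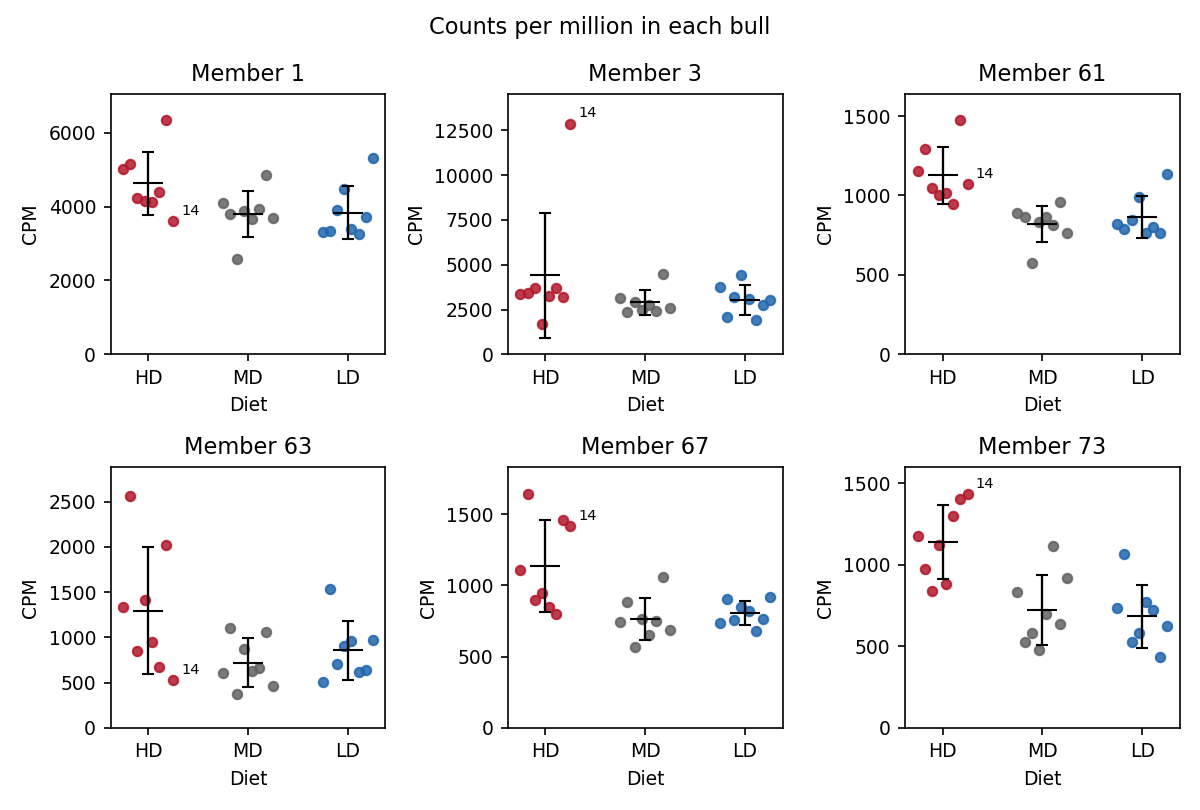
CPM after TMM scaling (y axis) in each bull for 6 members, by diet; points are bulls, bars give the mean ± SD of 8 bulls, and 14 marks HD bull 14. In members 61, 67 and 73 most HD bulls lie above most MD and LD bulls, while in member 3 HD bull 14, at 12870 CPM, sits far from the other 23.

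Of the 12 most abundant members, 10 and 12 were called and the other 10 were not. Member 10, with 7 bins, lay between 1787 and 3800 CPM in HD bulls (median 2606), 1249 and 2637 CPM in MD bulls (median 1584) and 1453 and 2444 CPM in LD bulls (median 1666). Its log2 fold change HD/MD was 0.66 ± 0.19 (SE; adjusted p = 0.0702, edgeR). Member 1 had medians of 4310 CPM in HD, 3839 CPM in MD and 3549 CPM in LD bulls, with overlapping groups and a log2 fold change HD/MD of 0.28 ± 0.14 (SE; adjusted p = 0.176, edgeR). For member 3 the log2 fold change HD/MD was 0.60 ± 0.28 (SE; adjusted p = 0.153, edgeR) and was 0.13 without HD bull 14. Members 2, 4, 5, 6, 7, 8, 9 and 11 had log2 fold changes HD/MD between -0.10 and 0.21, with adjusted p of at least 0.24 (edgeR).

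Members with fewer exon bins were called more often. Of the 10 members with 2 to 5 bins, 6 were called higher in HD than in MD bulls, of the 31 with 6 to 10 bins 14, of the 36 with 11 to 20 bins 7, and of the 23 with 21 to 49 bins 1. The median log2 fold change of the members in these classes was 0.53, 0.41, 0.16 and 0.08. The order was the same over all features tested, of which 14.2%, 11.3%, 4.69% and 1.65% were called higher, with median log2 fold changes of 0.13, 0.08, -0.06 and -0.21. Calls lower in HD bulls ran the other way over all features, at 2.89%, 3.35%, 6.68% and 12.1%, while 0 members were lower in any class. In each class the median of the members was above that of all features. The called members had a median of 8.5 bins and the others one of 14.

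**Figure D4:**
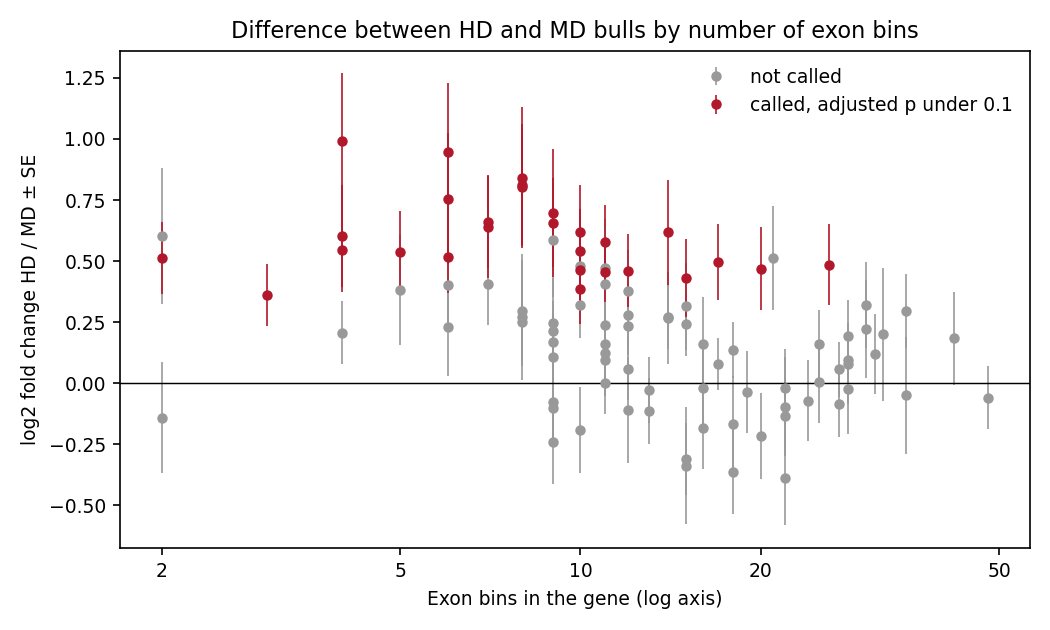
Log2 fold change HD/MD ± SE from edgeR (y axis) of each member against its number of exon bins (x axis, log scale); red points passed an adjusted p under 0.1. Called members run from 0.36 to 0.99, and the share called falls from class to class of bins, from 6 of 10 members at 2 to 5 bins to 1 of 23 at 21 bins or more.

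The second comparison set HD against LD bulls, and it shares the HD bulls with the first. At an adjusted p under 0.1, edgeR called 0 members and 0% of all features, and the smallest adjusted p of a member was 0.206. At an unadjusted p under 0.05, 26 members were higher in HD bulls and 1 was lower, beside 11.1% and 6.65% of all features. DESeq2 called 10 members, all higher, and 550 of 21333 features (2.58%). The median log2 fold change of the members was 0.22, against 0.01 over all features, and 79 were positive, from -0.35 to 0.79 over the list. The 4 members with the smallest p were 73, 24, 67 and 61. Their log2 fold changes HD/LD were 0.74 ± 0.18, 0.51 ± 0.15, 0.50 ± 0.15 and 0.38 ± 0.12 (SE), each with an adjusted p of 0.206 (edgeR). Leaving out HD bull 12 led to 10 members and 4.75% of all features called, and leaving out any other single bull led to 0. Low-quality alignments made up 21% of counts plus unassigned reads in HD bull 12 and 17.9% in HD bull 8, against 6.63% to 11.3% in the other 22 bulls, and their part in the differences between diets was not tested.

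In the third comparison, MD against LD, edgeR called 0 members and 0% of all features, and DESeq2 called 0 members and 1 of 21333 features. At an unadjusted p under 0.05, edgeR found 0 members and 1.07% of all features. The members had a median log2 fold change of -0.03, against 0.00 over all features, and ran from -0.29 to 0.24.

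The levels of many members moved with the share of reads outside exons, which overlapped between the groups. The HD bulls averaged 12.3% ± 2.17 (SD, n = 8), the MD bulls 14.5% ± 3.28 (SD, n = 8) and the LD bulls 13.3% ± 1.83 (SD, n = 8). Without MD bull 6 the MD mean was 13.5% ± 1.86 (SD, n = 7), and the difference between diets in this share was not tested. With diet in the model, 64 members changed with this share at an adjusted p under 0.1 (edgeR), 51 falling and 13 rising as it increased. Over all features, 52.6% were called, 24.5% falling and 28.1% rising. The median slope of the members was -0.05 on the log2 scale per percentage point, against 0.01 over all features. Among the next 400 genes by rank, 46.2% fell and 17% rose.

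Member 63 (ENSBTAG00000019648, 8 bins) fell most steeply, by 0.22 ± 0.02 (SE) on the log2 scale per percentage point (adjusted p = 5.73e-07, edgeR). It lay between 528 and 2560 CPM in HD, 372 and 1106 CPM in MD and 504 and 1533 CPM in LD bulls, with medians of 1144, 642 and 808 CPM, and the groups overlapped. Member 50 rose most steeply, by 0.19 ± 0.02 (SE; adjusted p = 1.99e-07, edgeR). It had medians of 890 CPM in HD, 1094 CPM in MD and 1028 CPM in LD bulls. Member 1 fell by 0.07 ± 0.02 (SE; adjusted p = 0.0049, edgeR), while member 73 had a slope of 0.00 ± 0.03 (SE; adjusted p = 0.986, edgeR).

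**Figure D5:**
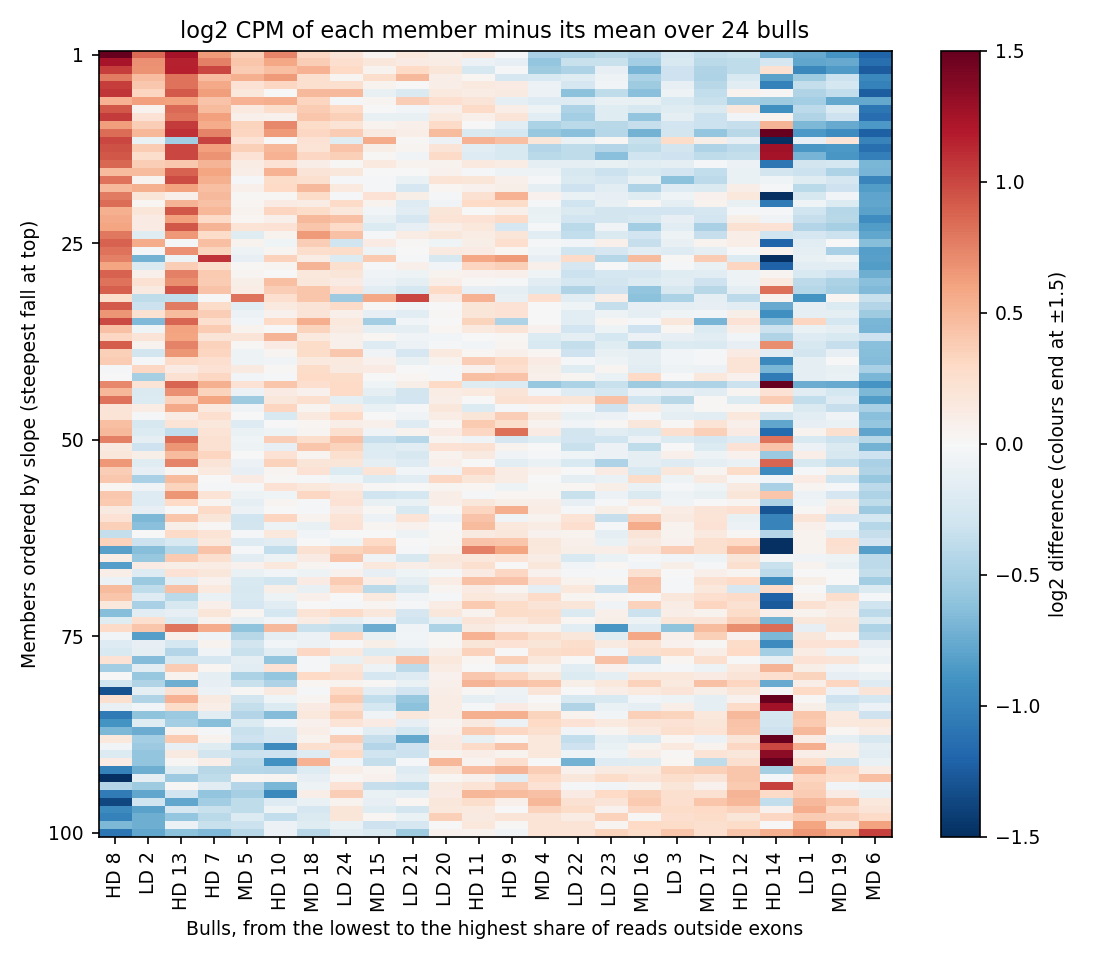
Log2 CPM of each member minus its mean over 24 bulls (colour), with members in rows from the steepest fall to the steepest rise with reads outside exons, and bulls in columns from the lowest such share (9.54%, HD bull 8) to the highest (21.4%, MD bull 6). The upper rows turn from red to blue from left to right, and the column of HD bull 14 departs from its neighbours in many rows.

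The members that fell with reads outside exons and those higher in HD bulls overlapped. Of the 28 members called higher in HD than in MD bulls, 22 were among the 51 that fell, 0 among the 13 that rose and 6 among the 36 with no call. The 22 make up 78.6% of the 28 and 43.1% of the 51. The 6 with no call depended in part on HD bull 14. Without it, members 24, 48 and 100 fell, with slopes of -0.07, -0.15 and -0.05 (adjusted p = 0.0037, 8.9e-06 and 0.0531, edgeR). Member 73 still had no call (slope -0.01, adjusted p = 0.813, edgeR), and values for members 33 and 83 are not given here. In that fit 61 members were called, 55 of them also called with all bulls, and 54.7% of all features were called. Of the 1302 features called higher in HD bulls over all genes, 64.8% fell, and of the 95 so called among the next 400 genes by rank 75.8% fell. Conversely, 22.9% of all features that fell, and 38.9% of those among the next 400 genes, were called higher in HD bulls. Once reads outside exons entered the model as a covariate, edgeR called 0 members between HD and MD bulls, and 30 had an unadjusted p under 0.05. The calls were lost over all features too, of which 1 of 15005 was called in that fit and 15.8% had an unadjusted p under 0.05. The median log2 fold change HD/MD of the members was then 0.10, and that of the 28 members was 0.33, from 0.19 to 0.93. The 28 were picked as higher in HD bulls in these same libraries, so their sign in this fit is no separate support. For member 63 the log2 fold change HD/MD was 0.84 ± 0.29 (SE; adjusted p = 0.0787) without the covariate and 0.28 (adjusted p = 0.386) with it in edgeR. For member 73 it was 0.66 in both fits, with an adjusted p of 0.191 with the covariate. The part of reads outside exons in the difference between diets was not tested beyond these fits.

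Use of single exons was also compared, with limma's voom and diffSplice on the bins of each member. No member was called in any of the 3 comparisons at an adjusted p under 0.1, and leaving out HD bull 12 gave 1 call between HD and MD bulls. The share of all features called in that fit is not given here. Over the 11154 features tested, 0.0448% were called between HD and MD bulls and 0% in each of the other comparisons. At an unadjusted p under 0.05, 2 members were found between HD and MD bulls, 26 and 73 (adjusted p = 0.999 for both, diffSplice), and 0 in the other comparisons. Over all features 1.55% passed between HD and MD, 0.968% between HD and LD and 0.143% between MD and LD bulls, so 2 of 100 members was near the background. These shares are below the rate that a p under 0.05 gives by chance, so the absence of calls does not show equal exon usage.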

How the data were processed

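RNA from testicular parenchyma of 24 bulls, 1 library each, was sequenced by the authors. The submitters' processing notes list CASAVA 1.9, FastQC, TopHat2 2.0.10, Bowtie 1.1.2, Subread, featureCounts, DESeq2 and the build UMD3.1, and the labels of the unassigned reads in the tables are those of DEXSeq's counting script, whose version is not given in the sources used here. The values the authors deposited are read counts per exon bin, not normalized. Counts were summed over the bins of each gene, and libraries held 9163675 to 21902110 counts.

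Diets were compared with edgeR 4.0.16 in R 4.3.3 (filterByExpr, TMM, quasi-likelihood fit of all 24 libraries, Benjamini-Hochberg adjustment over 15005 features, threshold 0.1). SEs were obtained as the absolute log2 fold change over √F. The slope on reads outside exons was fitted with diet. Exon usage was tested with limma 3.58.1, and DESeq2 1.42.0 was an alternative, beside other scalings, filters, fits and each bull left out. The scripts were tested on simulated data.

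The members and lists were chosen with earlier results of these data known. Members reported singly are the 12 most abundant, the 6 called with the smallest p between HD and MD, the 4 with the smallest p between HD and LD, the 3 steadiest, the 3 most variable and those at the end of the list. Members 29, 30, 50, 58, 62 and 79 were named after their values were seen. None of 37063 genes of the RefSeq table (ARS-UCD2.0) carried an Ensembl identifier, so 0 members were paired with a symbol, and planned lists of pathways and cell type markers, lengths, positions and sequences were not used here.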

Additional observations from a re-analysis of the deposited data

Results flagged for a closer look

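In 81 groups of 8 bulls examined (the members reported singly and the summed shares, in each diet), 8 values lay far from the other bulls of their diet, with a gap to the nearest bull that, as a part of the range of the group, exceeded Dixon's 95% critical value for 8. Chance flags about 1 in 20 independent groups, but these groups share bulls and include members taken for their large spread, so no expected number is given. HD bull 14 gave 3 of the 8.

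In HD bulls, member 3 had 12870 CPM in bull 14, and the next highest HD bull had 3725 CPM. Member 48 had 4078 CPM in bull 14, and the next highest had 1788 CPM. Member 8 had 903 CPM in bull 14, and the next lowest had 2201 CPM. Member 11 had 778 CPM in bull 8, and the next lowest had 1803 CPM.

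In MD bulls, member 8 had 1515 CPM in bull 6, where the next lowest had 2072 CPM, and member 99 had 402 CPM in bull 6, where the next lowest had 702 CPM. Member 3 had 4496 CPM in MD bull 18, and the next highest had 3151 CPM. In LD bulls, member 63 had 1533 CPM in bull 2, and the next highest had 976 CPM. Between HD and MD bulls, the log2 fold change of member 8 was 0.12 with all bulls and 0.23 without HD bull 14.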

How the results depend on the processing

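The 28 members called between HD and MD bulls became 16 with library size only (13 higher and 3 lower, 13 of them among the 28), and 0 without the low-count filter, in a fit of the HD and MD bulls alone and with reads outside exons as a covariate. The smallest adjusted p of a member was then 0.101, 0.146 and 0.191, and 1 of all features was called in each of these 3 fits. The median log2 fold change of the members went from 0.24 to 0.026 with library size only for HD/MD and from 0.22 to 0.025 for HD/LD, where that of all features went to -0.21 and -0.17. DESeq2 with a beta prior called 10 members between HD and LD bulls, where edgeR called 0. DESeq2 size factors and TMM without the members gave 28 calls, and the most covered bin gave 20, with 14.5%, 14.1% and 9.63% of all features called. With 1 bull left out, calls ranged from 0 to 42 for HD/MD (0 in 8 of 24 fits), from 0 to 10 for HD/LD and from 0 to 1 for exon usage HD/MD. The calls on reads outside exons ranged from 59 to 67. The median log2 fold changes ranged from 0.19 to 0.27 for HD/MD, from 0.17 to 0.24 for HD/LD and from -0.07 to 0.00 for MD/LD, which was 0.01 with the covariate. For the 25 members reported singly, a tally covered the other scalings, filters and fits. Of the fits with 1 bull left out, it took only those with the lowest and highest log2 fold change of each member. In this tally no called HD/MD difference was reversed, 206 values kept their side of the threshold, 40 lost it and 4 passed it newly. It understates the losses, because every called member lost its call in each of the 8 leave-one-out fits with 0 calls. On the most covered bin the members held 8.86% in place of 12.4% of counts, and 46 in place of 100 would have been members. The cause of these changes was not tested, and ranking on counts per length was not run. No paired analysis was possible because the diets share no replicate numbers. Depth set a counting error of up to 2.57% for a member in a library if each count is taken as a separate read. Reads that enter more than 1 bin make the true error larger.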
